A study of Mus musculus with 14 samples.

Results

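The transcripts described here are those of kappa-casein (Csn3) and of the prolactin and growth hormone pathway, measured in mouse pancreatic beta-cell lines with altered Sirt1. The set asked for 10 genes: the milk proteins Csn3 and Csn2, the receptors Prlr and Ghr, the transcription factors Stat5a and Stat5b, the feedback inhibitors Socs2, Socs3 and Cish, and the serotonin-synthesis enzyme Tph1. Members were the array probes whose single platform gene symbol, updated through its Entrez identifier, was one of these names. The rule found 8 of the 10 genes, with 1 probe each, among 15099 genes named on the array (23232 probes). For Prlr and Stat5b no probe carried that name alone, so these 2 are not analysed here. Csn3 was chosen by its log2 ratios in these same arrays, so its values are given as a description with no p-value. The other members were listed by their place in the pathway with earlier results of these data known, and calls among them are not independent evidence.

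All lines were derived from MIN6, a mouse insulin-secreting beta-cell line, at passage 24, and were grown at 5 mM glucose for 4 days before RNA was taken. Sir2OE1 (3 arrays) and Sir2OE2 (4 arrays) carried mouse Sirt1 on the pBabe-Sirt1 retrovirus with neomycin resistance, were kept under G418 at 280 micrograms per ml, and were compared with pooled RNA of the pBabe-neo control lines Neo1 and Neo2. Sir2KD1 (3 arrays) and Sir2KD2 (4 arrays) had been transfected with mU6pro vectors for 2 different small interfering RNAs against Sirt1 and a neomycin-resistance plasmid, were kept under G418 at 400 micrograms per ml, and were compared with the single empty-vector line mU6pro. Each line is 1 selected line, nothing describes its arrays as separate cultures, and p-values thus reflect only array-to-array spread, which can be technical. The control lines' own spread is not in the ratios. Nothing says whether a selected line is a single clone. The files hold no intensities, so the presence of beta-cell markers, and signal over background, could not be checked.

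Prolactin and growth hormone bind related receptors of the class I cytokine family, which signal through the kinase Jak2 to the transcription factors Stat5a and Stat5b. Stat5 switches on milk protein genes in mammary epithelium, and it also switches on Cish and Socs2, whose proteins damp the same receptors. In islets the pathway is known for the growth of beta cells in pregnancy, during which prolactin induces Tph1. Caseins are the main milk proteins, and kappa-casein keeps casein micelles in suspension.

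Values are log2 ratios of the channels of an array. They were read as channel 2 over channel 1, the sign was turned on every array that had the line in channel 1, and a fitted channel offset of each probe was taken off. Which channel is on top is stated nowhere, so the text gives only a plus and a minus side of the turned ratio, and neither can be read as more or less RNA in a line. A statement that overexpressing and knockdown lines lie on the same side assumes that 1 channel is on top throughout. The deposited values of every probe with all values sum to 0 over 6 of 7 arrays of each kind, and in both kinds those 6 arrays hold the line in channel 2 on 3 arrays and in channel 1 on 3. Probes were called at a limma adjusted p under 0.05 (Benjamini-Hochberg over 23230 tested probes).

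The targeted gene did not settle the direction. On the turned scale Sirt1 was at -0.10, 0.19 and 0.15 in Sir2OE1 and at -0.22, -0.38, -0.26 and -0.47 in Sir2OE2. It was at -0.14, -0.19 and 0.04 in Sir2KD1 and at 0.20, 0.09, 0.12 and 0.09 in Sir2KD2. It was not called in any line (lowest limma adjusted p = 0.131, in Sir2OE2), and lines of the same kind did not share a side.

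Csn3 (Entrez gene 12994, probe for NM_007786) stood far from its control in both knockdown lines and on opposite sides in the overexpressing lines. In Sir2KD1 its turned log2 ratio was 2.80, 2.93 and 2.59 on slides 1 to 3, and in Sir2KD2 it was 2.07, 1.54, 1.83 and 1.83 on slides 1 to 4. In Sir2OE1 it was -0.91, -0.71 and -1.0, while in Sir2OE2 it was 0.69, 0.88, 0.91 and 0.91. The arrays of the 4 lines do not overlap at all: Sir2OE1 is lowest and the single line on the minus side, followed by Sir2OE2, Sir2KD2 and Sir2KD1, and each line is clear of the next. The fitted ratios were -0.87 ± 0.14 (SE, n = 3 arrays) in Sir2OE1, 0.84 ± 0.12 in Sir2OE2 (n = 4), 2.77 ± 0.14 in Sir2KD1 (n = 3) and 1.82 ± 0.12 in Sir2KD2 (n = 4). These are folds of 1.83, 1.80, 6.83 and 3.53. Only 27 of the 23230 probes lay further from 0 than Csn3 in Sir2KD1 and 37 in Sir2KD2, against 667 in Sir2OE1 and 716 in Sir2OE2. The difference Sir2OE1 minus Sir2OE2 was -1.72 ± 0.18 and Sir2KD1 minus Sir2KD2 was 0.95 ± 0.18 (SE).

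Csn3 also shows what the exchange of channels did to a strongly different transcript. Undoing the centring gives channel ratios that are whole-number percents within a relative tolerance of 1e-05. For each probe they are known up to a factor common to the arrays of a kind, and the smallest whole numbers that fit are given. In Sir2KD1 the channel ratio of Csn3 was 797% on slide 1, and on slides 2 and 3, where the line was in the other channel, it was 15% and 19%. In Sir2KD2 it was 478% and 332% with the line in channel 2 and 32% on each of the 2 slides with the line in channel 1. In Sir2OE2 it was 163% and 186% with the line in channel 2 and 54% on both slides with the line in channel 1, whereas Sir2OE1 ran the other way, with 54% and 62% in channel 2 and 203% in channel 1. The ratio thus turned over with the channel in every line. With no array turned, the SE of Csn3 was 0.48 in the 3-array lines and 0.40 in the 4-array lines, and its ratio lay between -0.23 and -0.04 in all lines. If the smallest whole numbers hold, they set a limit on precision: near 15% a step of 1 percentage point is 0.09 on the log2 scale. The equal values of slides 3 and 4 in both Sir2OE2 and Sir2KD2 are equal whole numbers.

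**Figure D1:**
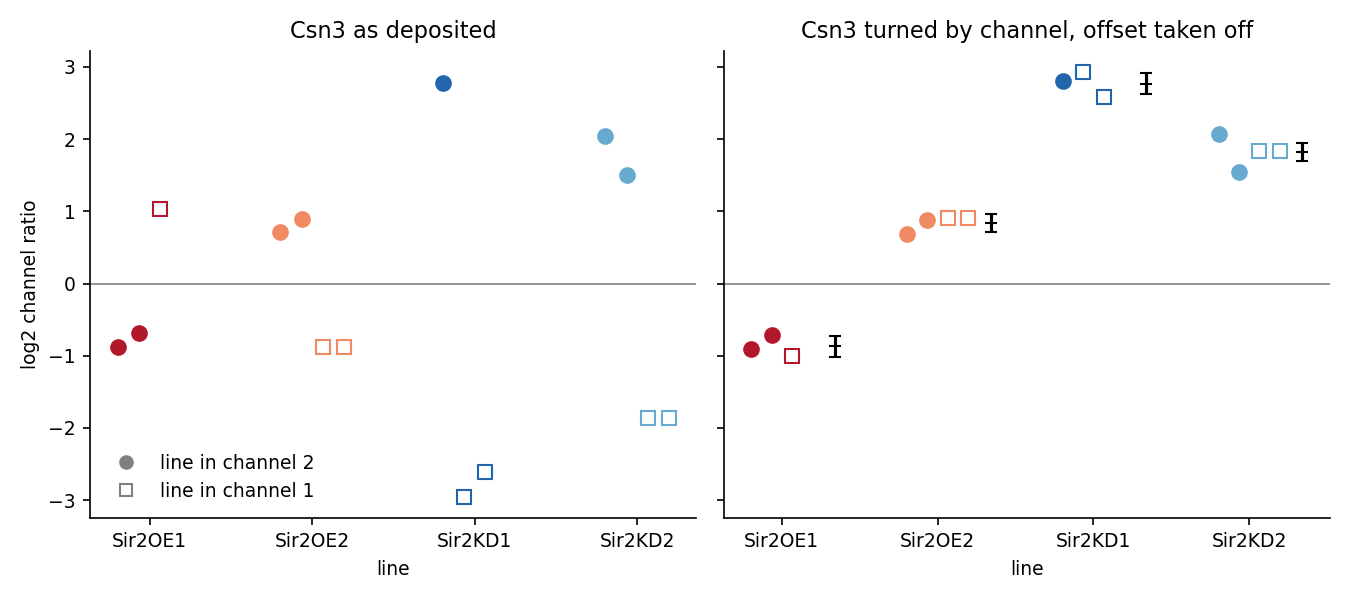
Log2 channel ratio of Csn3 on each of the 14 arrays, by line, as deposited (left) and after turning by channel with the fitted offset taken off (right). Filled circles are arrays with the line in channel 2, open squares arrays with the line in channel 1, and black bars the fitted ratio ± SE. On the left the shapes lie on opposite sides of 0 within every line, and on the right the arrays of a line lie together, from -1.0 in Sir2OE1 to 2.93 in Sir2KD1.

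The other measured casein of the set, beta-casein (Csn2, NM_009972), was called in Sir2OE2 and not in the other lines, and its arrays were less uniform. Its turned log2 ratio was 1.64, 1.40, 1.62 and 0.35 on the 4 slides of Sir2OE2 and 0.55, 0.09 and 1.12 on those of Sir2OE1. In Sir2KD1 it was -0.07, 0.20 and 0.20, and in Sir2KD2 -0.03, 0.62, 0.35 and -0.13. All 7 overexpression arrays lay on the plus side and overlapped between the lines, while the knockdown arrays lay around 0. The fitted ratio in Sir2OE2 was 1.25 ± 0.24 (SE, n = 4), a fold of 2.38, with limma adjusted p = 0.0163. Without Sir2OE2 slide 1, 2 or 3 the ratio was 1.09, 1.19 or 1.10 and the adjusted p was 0.127, 0.115 or 0.119, so the call needs each of those arrays. It was also lost with the kinds fitted separately (adjusted p = 0.0752), with the slide number as a replicate block (adjusted p = 0.155) and with no array turned (0.18, adjusted p = 1.0). In Sir2OE1 it was 0.59 ± 0.28 (SE, n = 3), with limma adjusted p = 0.553, and the difference Sir2OE1 minus Sir2OE2 was -0.66 (95% interval -1.47 to 0.15, adjusted p = 0.793). In Sir2KD1 and Sir2KD2 the ratios were 0.11 (-0.51 to 0.73) and 0.20 (-0.32 to 0.73). As the smallest whole numbers that fit, its channel ratios in the overexpression arrays ran from 72% to 211% with the line in channel 2. With the line in channel 1 they ran from 22% to 53%. In the knockdown arrays they ran from 28% to 55%, and arrays with the line in either channel overlapped. The factor left open can differ between the kinds, so these percents cannot be compared across kinds.

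Csn2 is the textbook Stat5-responsive milk protein gene, and its promoter is printed to show the Stat5 binding motif beside the member that was called in Sir2OE2. The sequence is RefSeq's, from GRCm38.p6 at chr5:87699430-87699675, minus strand, the 246 bases before the annotated gene. Capitals mark TTCNNNGAA, the Stat5 motif, which reads the same on either strand.
Csn2 upstream: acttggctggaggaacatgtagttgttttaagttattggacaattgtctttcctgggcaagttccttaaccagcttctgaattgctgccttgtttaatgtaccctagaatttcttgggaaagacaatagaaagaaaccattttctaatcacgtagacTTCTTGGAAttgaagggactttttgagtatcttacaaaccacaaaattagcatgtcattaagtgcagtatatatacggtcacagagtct

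RefSeq promoter windows, 250 bases before to 50 after a start, were found for 8 of the 10 genes, as 14 windows, while Csn3 and Socs2 were not among them. The motif was present in 4 of the 14 windows, 1 each for Csn2, Cish, Socs3 and Prlr, against 8.30% of all 32851 windows. Windows of Tph1, Ghr, Stat5a and Stat5b did not hold these letters, which says nothing about binding elsewhere. The sites of the measured members are shown side by side, since Csn2, Socs3 and Cish carry the same motif and differ in whether they were called. Their positions are chr5:87699500-87699528 (minus strand), chr11:117969502-117969530 (minus strand) and chr9:107296654-107296683 (plus strand), again on GRCm38.p6.
Csn2 site: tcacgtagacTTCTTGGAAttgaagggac
Socs3 site: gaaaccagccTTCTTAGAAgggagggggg
Cish site: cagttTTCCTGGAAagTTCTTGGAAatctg

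Cish holds 2 copies at its annotated start and Csn2 and Socs3 hold 1 each. A match is a description of letters and not a shown binding site.

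The receptor Ghr and the transcription factor Stat5a were not called in any line. Ghr, the growth hormone receptor, was at -0.09, -0.11 and -0.16 in Sir2KD1 and at -0.20, -0.18, -0.19 and -0.12 in Sir2KD2. In Sir2OE1 it was at -0.04, -0.22 and 0.24, and in Sir2OE2 at 0.17, -0.06, -0.06 and -0.33. Its 7 knockdown arrays all lay slightly on the minus side, but the fitted ratios were -0.12 and -0.17, with limma adjusted p = 0.732 and 0.557 and 95% intervals of -0.41 to 0.17 and -0.42 to 0.07. In the overexpressing lines the intervals were -0.30 to 0.28 and -0.32 to 0.17. Ghr was thus the member with the narrowest bounds, and within them any difference in any line was at most 0.42 on the log2 scale.

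Stat5a was on the minus side on all 7 overexpression arrays, at -0.15, -0.77 and -0.03 in Sir2OE1 and at -0.03, -0.09, -0.25 and -0.45 in Sir2OE2. In Sir2KD1 it was at 0.10, -0.28 and -0.22, and in Sir2KD2 at -0.19, 0.29, 0.30 and 0.26. The array ranges of all 4 lines overlapped. The fitted ratios were -0.32 ± 0.18 in Sir2OE1, -0.21 ± 0.15 in Sir2OE2, -0.13 ± 0.18 in Sir2KD1 and 0.16 ± 0.15 in Sir2KD2 (SE, n = 3, 4, 3 and 4), with limma adjusted p between 0.668 and 0.799. The ratio in Sir2OE1 rested on single arrays, at -0.09 without slide 2 and -0.61 without slide 3, and its 95% interval reached -0.71.

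Of the feedback inhibitors Cish, Socs2 and Socs3, which turn cytokine receptor signalling down, 0 of 3 were called in any line. Over all probes 1.06% to 3.59% were called in a line, so 0 of 3 is about the background. Cish was at 0.79, 0.17 and 0.07 in Sir2OE1 and at -0.52, -0.65, -0.53 and -0.09 in Sir2OE2. These lines lie on opposite sides with no overlap, in the reverse order to Csn3. The share of all probes whose arrays separate in this way was not counted. The difference Sir2OE1 minus Sir2OE2 was 0.80 ± 0.28 (SE, n = 3 and 4 arrays), with limma adjusted p = 0.450, so it did not pass. In the knockdown lines Cish lay between -0.45 and 0.25 in Sir2KD1 and between -0.51 and 0.23 in Sir2KD2, which overlap.

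Socs2, the inhibitor best known for limiting growth hormone action, was at -0.15, -0.52 and -1.16 in Sir2KD1 and at -0.30, -0.71, 0.07 and -0.17 in Sir2KD2. In Sir2OE1 it was at 0.14, 0.37 and 0.03, and in Sir2OE2 at 0.09, -0.12, 0.29 and -0.03. Sir2KD1 lay wholly on the minus side and Sir2OE1 wholly on the plus side, and both ranges met those of the other line of their kind. The fitted ratio in Sir2KD1 was -0.61 ± 0.21 (SE, n = 3), with limma adjusted p = 0.158. Without slide 3 of Sir2KD1 it was -0.33, and without slide 1 it was -1.07 (limma adjusted p = 0.0587).

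Socs3, the inhibitor that acts on receptors of the interleukin-6 family, had its widest spread in Sir2KD1, at 0.24, 0.53 and -0.70. It was at -0.15, -0.39, -0.26 and 0.16 in Sir2KD2, at 0.11, 0.16 and -0.03 in Sir2OE1 and at 0.11, 0.15, 0.05 and 0.43 in Sir2OE2. Every line but Sir2OE2 held arrays on both sides of 0. Its fitted ratios lay between -0.16 and 0.18, with limma adjusted p of 0.774 or more.

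Tph1, the rate-limiting enzyme of serotonin synthesis outside the brain, lay on the minus side in 6 of 7 overexpression arrays. It was at -0.49, -0.26 and -0.29 in Sir2OE1 and at -0.31, -0.65, 0.18 and -1.25 in Sir2OE2. In Sir2KD1 it was at -0.38, -0.29 and -0.19, close together, and in Sir2KD2 at -0.28, 0.43, 0.15 and -0.18. The ranges of all 4 lines overlapped. The largest ratio was -0.51 ± 0.20 in Sir2OE2 (SE, n = 4), with limma adjusted p = 0.308, and it was -0.20 without slide 4 and -0.79 without slide 3 (adjusted p = 0.0907). Its 95% interval in Sir2KD2 ran from -0.42 to 0.48.

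**Figure D2:**
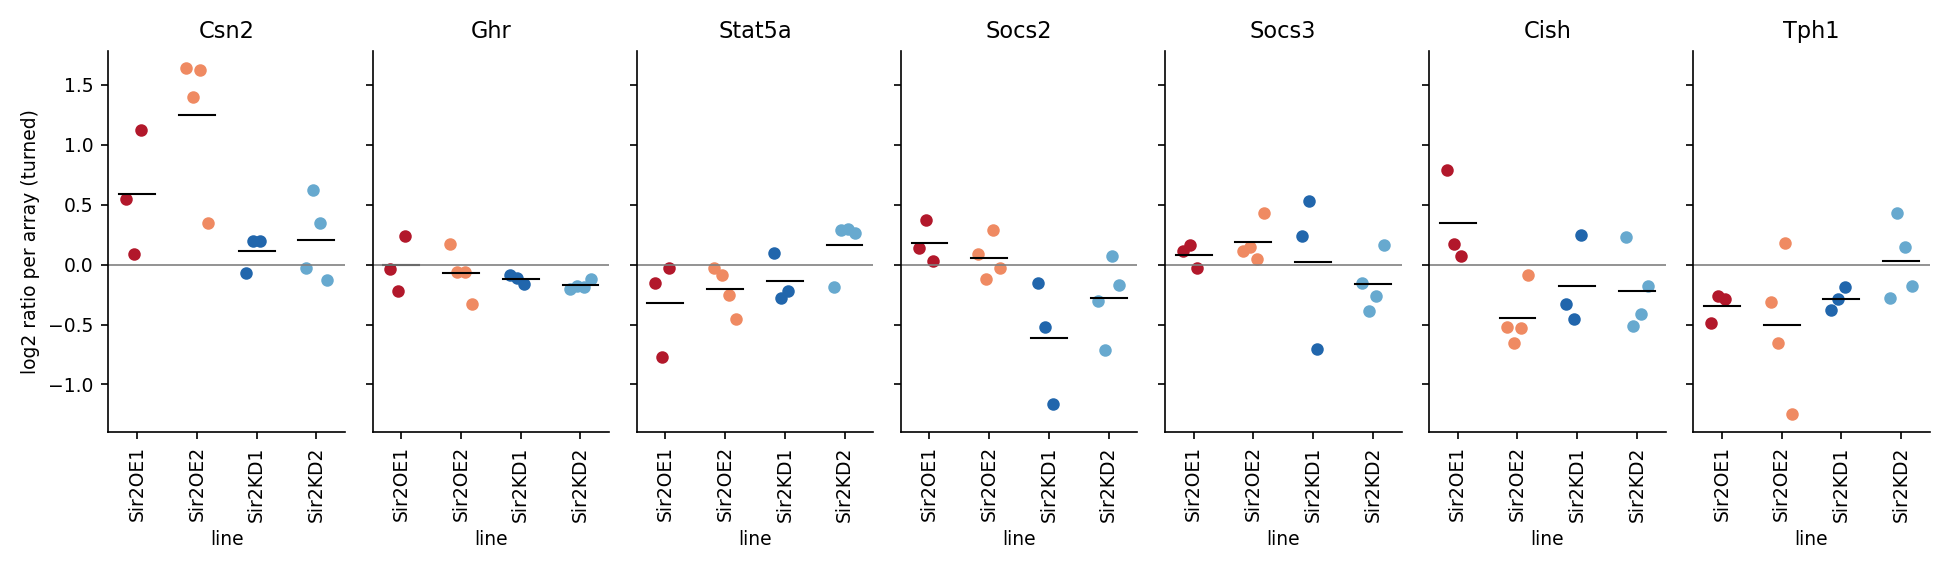
Turned log2 ratio of the 7 measured members other than Csn3 on each array, by line (points, 3 or 4 arrays a line; black lines are means of the points). Csn2 lies highest, at up to 1.64 in Sir2OE2, and Cish lies on opposite sides in Sir2OE1 and Sir2OE2.

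Leaving Csn3 aside, limma called 0 of 7 members in Sir2OE1, 1 of 7 in Sir2OE2 (Csn2), 0 of 7 in Sir2KD1 and 0 of 7 in Sir2KD2. At an unadjusted p under 0.05 stood Csn2, Cish and Tph1 in Sir2OE2 and Socs2 in Sir2KD1. Over all probes 1.06%, 2.81%, 3.59% and 1.34% were called in these lines, and with 7 genes a single call is the smallest count above 0. Of the differences between lines of a kind, limma called 0 of 7 members for Sir2OE1 minus Sir2OE2 and 0 of 7 for Sir2KD1 minus Sir2KD2, where 0.323% and 0.689% of all probes were called, and Cish in the overexpressing lines alone stood at an unadjusted p under 0.05. The median of all 8 members, Csn3 included, was 0.04, -0.01, -0.12 and -0.06 in the 4 lines, where the median of all probes was between 0.00 and 0.02. The 95% intervals of the members reached 0.29 (Ghr) to 0.62 (Csn2) to either side of the ratio in the 3-array lines and 0.24 to 0.53 in the 4-array lines.

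**Figure D3:**
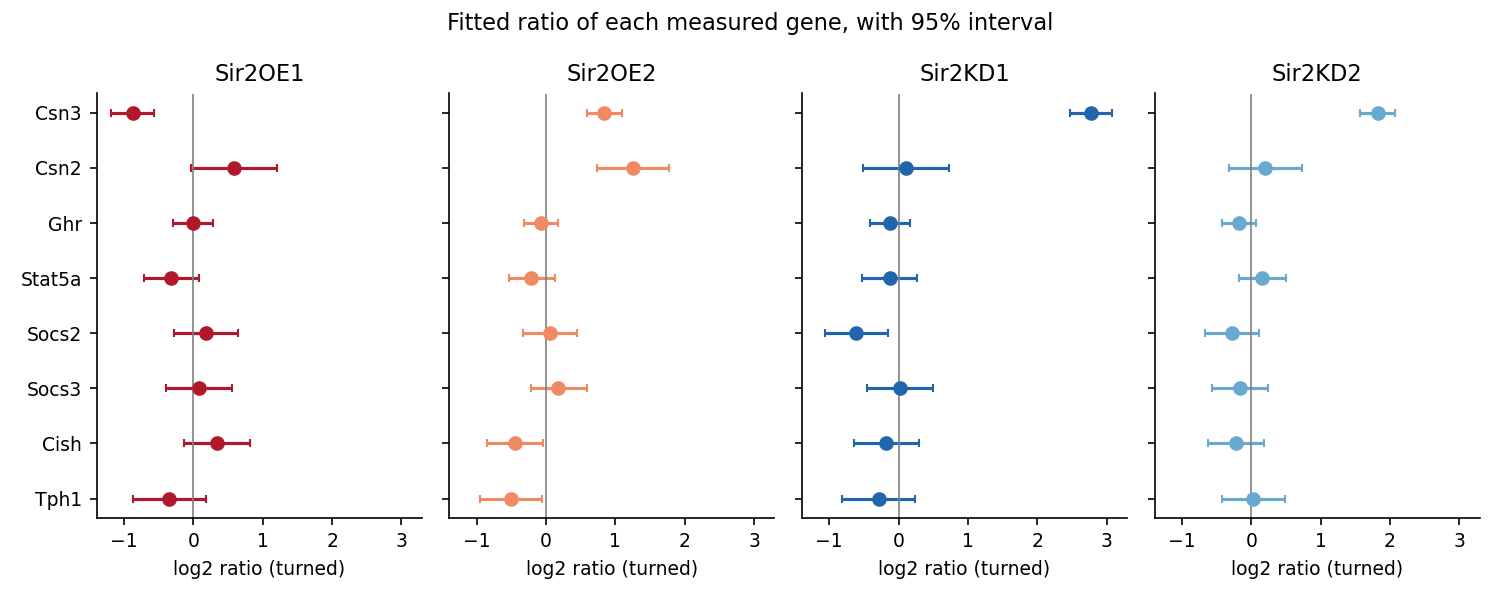
Fitted log2 ratio of each of the 8 measured genes in each line, with its 95% interval. Csn3 is the single gene far from 0 in the knockdown lines, at 2.77 and 1.82, and in Sir2OE2 Csn2 (1.25) and Csn3 (0.84) stand apart from the other 6.

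Casein genes lie in a cluster on mouse chromosome 5. Csn3 was chosen for its ratios, and only 27 and 37 of 23230 probes lay further out in Sir2KD1 and Sir2KD2. That neighbours did not reach its ratios there was nearly fixed in advance, and their values are given as a description. In Sir2OE2 Csn2, which lies 10 genes from Csn3, was at 1.25, on the same side as Csn3 at 0.84 and further from 0. In the gene order of GRCm38.p6, the nearest 6 genes with a probe on each side of Csn3 were read by 13 probes. Of these, 1, the Csn2 probe, was called in any line. Over all probes 1.06%, 2.81%, 3.59% and 1.34% were called in the 4 lines, so 1 call among 13 probes is about the background. The alpha-casein genes Csn1s2a and Csn1s2b, on the same side as Csn2, were at 0.02 and 0.45 in Sir2KD1 and at 0.11 and 0.00 in Sir2KD2. Odam, an enamel-associated gene that lies 3 genes from Csn3, was at 0.37 and 0.49 there, with limma adjusted p = 0.624 and 0.466. The 12 neighbour probes other than Csn2 lay between -0.32 and 0.45 in Sir2KD1 and between -0.29 and 0.49 in Sir2KD2. In Sir2OE1 they lay between -0.42 and 0.99 and in Sir2OE2 between -0.47 and 0.31. The outermost of these was a Smr3a probe at 0.99 in Sir2OE1, where the other Smr3a probe was at -0.42.

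**Figure D4:**
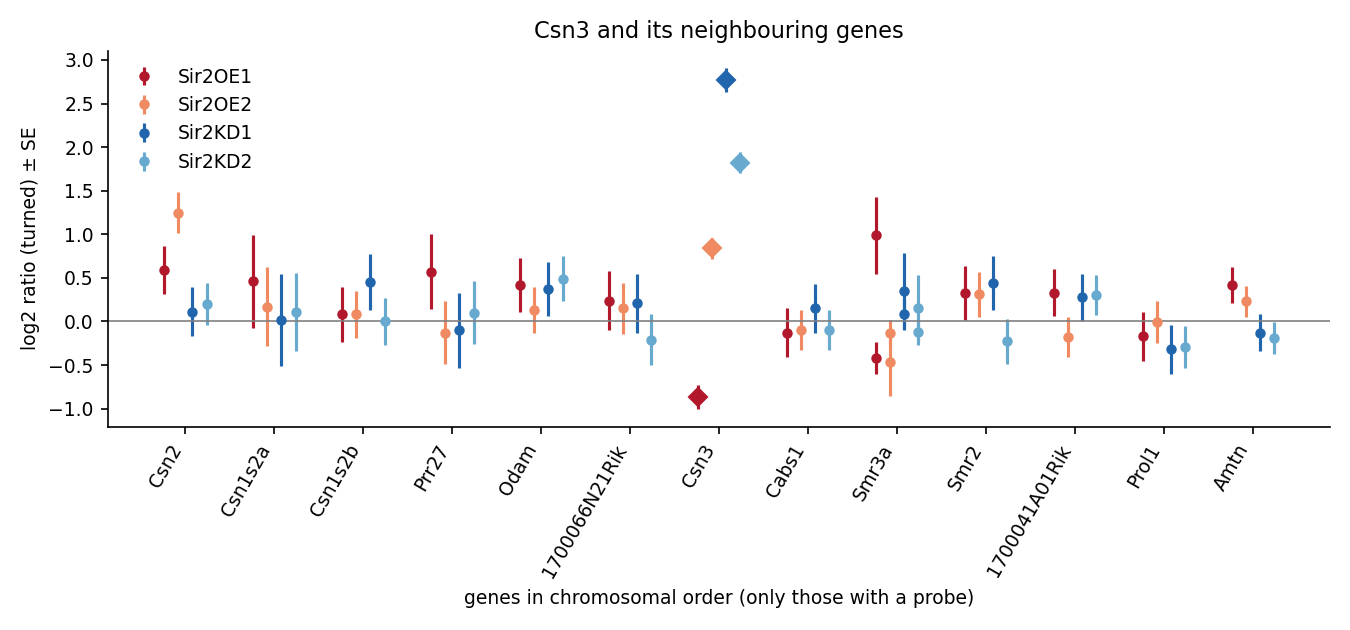
Turned log2 ratio ± SE of Csn3 (diamonds) and of the nearest genes with a probe (circles) in the 4 lines, in chromosomal order; Smr3a has 2 probes. Csn3, chosen for its ratios, lies between -0.87 and 2.77, and in the knockdown lines its neighbours lie between -0.32 and 0.49.

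Of the list of milk proteins and mammary secretion genes, 19 probes of 18 genes were measured and 0 were called in any line, which at 1.06% to 3.59% called over all probes is about the background, with medians of 0.04, 0.04, -0.08 and 0.00. Csn1s1, the alpha-S1 casein, was at -0.21 in Sir2KD1 and 0.22 in Sir2KD2, and Lalba, the lactose synthase subunit, at -0.14 and -0.03. Of 10 probes for mammary epithelium markers and 3 for pituitary markers, 0 were called in any line. The hormones themselves, Prl and Gh, were at 0.21 and -0.39 in Sir2KD1 and at 0.38 and -0.06 in Sir2KD2.

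The wider pathway was read from 6 lists, written with earlier results known: ligands, receptors and kinases, signalling adaptors and phosphatases, Stat5 targets, prolactin-linked islet genes, and the milk list above. Without the members they held 128 probes of 116 genes, of which limma called 4 in Sir2OE1, 6 in Sir2OE2, 7 in Sir2KD1 and 7 in Sir2KD2. Those are 3.12%, 4.69%, 5.47% and 5.47% of the list probes, and most were on the minus side (4, 5, 6 and 6), with 0, 1, 1 and 1 on the plus side. Over all probes 0.594%, 1.38%, 1.98% and 0.74% were called on the minus side and 0.469%, 1.43%, 1.6% and 0.603% on the plus side. These counts depend on single arrays and on the fit. The count in Sir2OE1 was 1 without its slide 1, 0 without its slide 2 or 3, 1 without Sir2OE2 slide 1 and 2 without Sir2OE2 slide 3. That in Sir2OE2 was 2, 2 or 3 without its slide 1, 2 or 3, and that in Sir2KD2 was 2 or 3 without any 1 of its slides. With the kinds fitted separately 0 remained in Sir2OE1 and in Sir2KD2, and with the slide number as a replicate block 0 in Sir2OE1, Sir2OE2 and Sir2KD2. The higher share than the background rests in part on few genes. The cyclin Ccnd2 has 2 probes and was called by both in every line. The glucose transporter Slc2a2 was called in every line as well, at -0.90 in Sir2OE1, -1.5 in Sir2OE2, -2.08 in Sir2KD1 and -0.89 in Sir2KD2. In Sir2KD2 the calls also included Lif, Stat4, a Prl2c2 probe and an Hnf4a probe.

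Beside the list counts below, 1.06%, 2.81%, 3.59% and 1.34% of all probes were called in the 4 lines. Of 18 probes for receptors and kinases, 0 were called in any line. Jak2, the kinase bound to both receptors, was at -0.12 in Sir2OE1, -0.29 in Sir2OE2, 0.48 in Sir2KD1 and 0.03 in Sir2KD2, and Jak1, Jak3 and Tyk2 lay between -0.61 and 0.34. Of 14 ligand probes, 1 was called on each side in Sir2KD2 and 0 in the other lines. The cytokine Lif was at -0.65 ± 0.11 there (SE, n = 4, limma adjusted p = 0.0153), and 1 of the Prl2c2 probes, for the prolactin relative proliferin, was at 1.14 ± 0.20 (adjusted p = 0.0192). The other Prl2c2 probe was at -0.13 in that line, and proliferin has close copies that probes may share, so this value is uncertain.

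Of 35 probes for adaptors and phosphatases, the docking protein Gab1 was called on opposite sides in Sir2OE2 (0.76 ± 0.15, limma adjusted p = 0.0208) and Sir2KD1 (-1.43 ± 0.18, adjusted p = 0.00155). The adaptor Shc1 was called in Sir2KD1, at 0.58 ± 0.12, and the transcription factor Stat4 in Sir2KD2, at -1.04 ± 0.18. Neither was called in another line, and the fitted differences between lines of a kind are not given here for these genes.

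Of 25 probes for Stat5 targets, both Ccnd2 probes passed, on the minus side, in all 4 lines and 0 of the other 23 in any. Ccnd2, a D cyclin that drives entry into the cell cycle, was at -0.94 and -0.79 in Sir2OE1, -0.81 and -0.81 in Sir2OE2, -1.51 and -1.19 in Sir2KD1 and -0.79 and -0.99 in Sir2KD2. It was on the same side as Csn3 in Sir2OE1 and on the opposite side in the other lines. The repressor Bcl6, a gene that Stat5 turns down in other cells, was not called, at 0.52 in Sir2KD1 and 0.79 in Sir2KD2.

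Of 23 probes for prolactin-linked islet genes, 4, 5, 5 and 4 passed on the minus side in the 4 lines and 0 on the plus side, the Ccnd2 probes included. The list also holds Men1, Cdkn1b and Cdkn2c, which were not called, and its genes need not share 1 direction under prolactin. Ddc, which makes serotonin from the product of Tph1, was at -0.85 ± 0.15 in Sir2OE1, -0.79 ± 0.13 in Sir2OE2 and -1.25 ± 0.15 in Sir2KD1, all called, and at 0.42 ± 0.13 in Sir2KD2, which was not called (limma adjusted p = 0.173). Tph1 and Ddc thus share the minus side in 3 lines, but Tph1 was not called in any. Ivd, an enzyme of leucine breakdown, was called in Sir2OE2 alone, at -0.61. One Hnf4a probe was called in both knockdown lines, at -1.17 and -0.97, and the other Hnf4a probe was at 0.37 and 0.08.

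**Figure D5:**
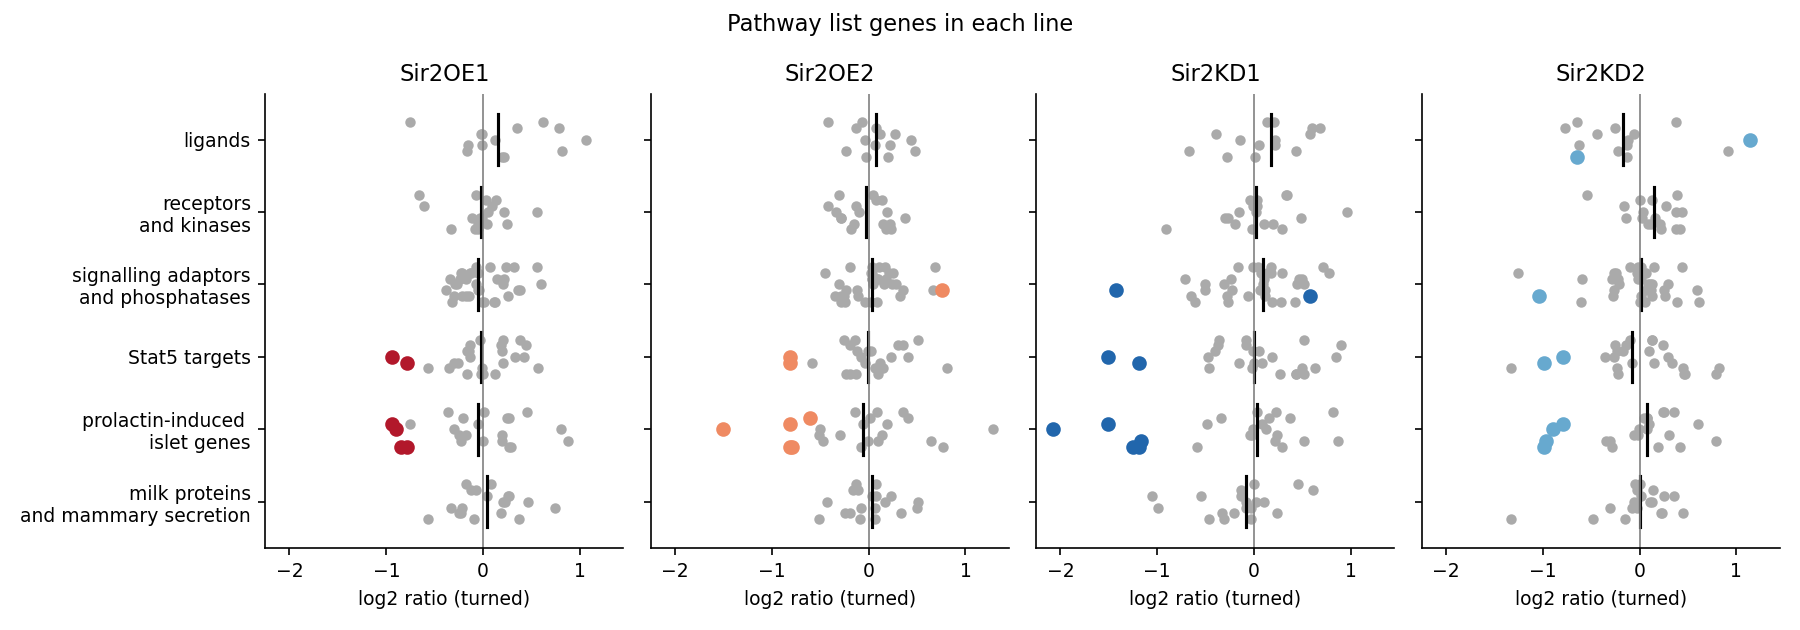
Turned log2 ratio of each probe of the 6 pathway lists in each line. The list drawn as prolactin-induced is the prolactin-linked list of the text. Coloured points were called at an adjusted p under 0.05, grey points were not, and black bars are list medians; genes in more than 1 list are drawn in each. In every line most coloured points lie on the minus side, and the lists of milk genes and of receptors and kinases have none.

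The profile of Csn3 over the 14 arrays was met most closely by Gsdma, which encodes the pore-forming protein gasdermin A. Likeness was measured as Pearson r of the turned values over the 14 arrays, among 1239 probes with a single gene name, all values and a call in at least 1 line. Arrays of a kind share their control RNA, and r is given as a description. Gsdma had r = 0.97 and was at -0.90 in Sir2OE1, 0.57 in Sir2OE2, 1.37 in Sir2KD1 and 0.96 in Sir2KD2. The next in order were Ifitm2 and Ceacam10 (both 0.959), Zfp185 (0.955) and Ctbp2 (0.947), which were on the minus side in Sir2OE2, unlike Csn3. The profiles most opposed to Csn3 were those of the neuronal RNA-binding protein gene Elavl4 (r = -0.968), Basp1 (-0.960) and Cds2 (-0.953), and for Basp1 and Cds2 only 1 of 2 probes is meant. Of the other members only Csn2 was called in a line, so the rest were outside these 1239 probes and cannot be ranked among them. As a description, r with Csn3 was -0.643 for Socs2, -0.427 for Csn2, -0.406 for Cish, -0.396 for Ghr, -0.126 for Socs3, 0.182 for Tph1 and 0.337 for Stat5a.

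Of 8 beta-cell marker probes, limma called 2, 2, 3 and 3 in the 4 lines, where 1.06%, 2.81%, 3.59% and 1.34% of all probes were called. One of the probes for the peptide hormone gene Ucn3 was at 2.86 and 2.62 in the knockdown lines, further from 0 than Csn3 there, while its other probe was at -0.95 and -0.40. The insulin gene Ins2 and the amylin gene Iapp were not called in any line, with ratios between -0.44 and 0.07. The convertase gene Pcsk1 was called on the plus side in Sir2OE1, Sir2OE2 and Sir2KD2, at 0.78, 0.78 and 0.76, and the transcription factor gene Pdx1 on the minus side in Sir2KD1, at -0.77. Of 5 probes for other islet hormones and factors, 0 were called in any line, and of 3 exocrine and duct probes Krt19 was called in Sir2OE1 and Sir2OE2, at -0.58 and -0.69. The part of these shifts in the member values was not tested.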

How the data were processed

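The deposited values are log2 ratios of the channels of 14 arrays, centred per probe by the authors as far as the values show; of software, background correction and normalization the sources used here say nothing. Gene symbols come from the platform annotation of 2007, updated through Entrez identifiers with the GRCm38.p6 gene table (16885 probes with 1 symbol, 16205 updated). The fit was made in R 4.3.3 with limma 3.58.1 (lmFit, eBayes) over all 14 arrays, with a coefficient for each line, its sign set by channel, and a channel offset for each kind, for probes measured on 2 or more arrays per line. The offset absorbs the centring. Line values and differences between the lines of a kind were tested against 0 (Benjamini-Hochberg, 0.05). Named genes were all probes of the members, the called genes of each list (at most 6), the 5 probes most like Csn3 and the 3 most unlike it, and 6 genes on each side of Csn3; the uncalled list genes named (Jak1, Jak2, Jak3, Tyk2, Bcl6, Csn1s1, Lalba, Prl, Gh, Ins2, Iapp) fall outside this rule and were chosen after their values were seen. The members and lists were chosen with earlier results of these data known. Alternatives covered the offset, the turn, separate fits, array scaling, robust variance, slide blocks and left-out arrays.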

Additional observations from a re-analysis of the deposited data

Results flagged for a closer look

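Csn3 lay on opposite sides in the overexpressing lines on every array, with Sir2OE1 minus Sir2OE2 at -1.72. Because the gene was chosen for this pattern, no p-value is given for the difference. Cish was also on opposite sides on every array of these lines, in the reverse order, with a difference of 0.80 that missed the limma threshold (adjusted p = 0.450). Cish was flagged for this separation, and the share of all probes that separate so was not counted. In Sir2OE2, slide 1 of Csn3 stood at 0.69, below the other 3 arrays at 0.88 to 0.91. In Sir2KD2, slide 1 of Stat5a stood at -0.19, below the other 3 arrays at 0.26 to 0.30. These arrays were picked out because their gap to the next array, as a share of the range of the 4 arrays, passed Dixon's critical value, which chance does in about 1 of 20 groups.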

How the results depend on the processing

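Csn3 kept its side in every line under all alternatives but the one with no array turned, which gave -0.23 in Sir2OE1, -0.04 in Sir2OE2, -0.19 in Sir2KD1, -0.04 in Sir2KD2, -0.19 for Sir2OE1 minus Sir2OE2 and -0.15 for Sir2KD1 minus Sir2KD2; that reading undoes the sign change by its construction. With arrays scaled alike Csn3 was at 2.39 in Sir2KD1 and 0.57 for Sir2KD1 minus Sir2KD2. With 1 array left out it lay between -0.96 and -0.74, 0.82 and 0.91, 2.70 and 2.87, and 1.72 and 1.94 in Sir2OE1, Sir2OE2, Sir2KD1 and Sir2KD2. The call of Csn2 in Sir2OE2, 1 of 7 members, became 0 with no array turned (0.18, adjusted p = 1.00), with the kinds fitted apart (1.25, 0.0752) and with the slide number as a replicate block (1.5, 0.155), and 0 or 1 with 1 array left out. Slide numbers were not taken as pairing in the main fit. Deviations of same-numbered arrays of a kind correlated above 0.1 in 1 of 6 pairs, with r from -0.389 to 0.237. On the turned scale a slide effect shared by arrays of opposite channel would give a negative r, so this count cannot decide on pairing. Differently numbered arrays of the lines of a kind correlated above 0.1 in 11 of 18 pairs, with r from -0.538 to 0.498. Across kinds 0 of 36 differently numbered and 0 of 13 same-numbered pairs did. The limma fit takes arrays as independent, and the effect of these correlations on its p-values was not tested. For the other lines and both line differences the count was 0 under each alternative.

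All probes called, 247, 653, 833 and 312 in Sir2OE1, Sir2OE2, Sir2KD1 and Sir2KD2, became 628, 1190, 1867 and 810 with no offset, 0, 0, 12 and 0 with no array turned and 0, 21, 242 and 31 under the replicate block. With 1 offset they were 406 in Sir2OE1, 1315 in Sir2KD1 and 541 in Sir2KD2; with the kinds apart 104, 219 and 65. Scaling gave 1015 in Sir2OE2 and 402 in Sir2KD1. Without both slides left out of the centring, an alternative chosen after seeing the data, they were 57 in Sir2OE1 and 439 in Sir2KD1. With 1 array left out they ran from 47 to 222, 317 to 675, 523 to 835 and 149 to 325.

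Pathway list probes called, 4, 6, 7 and 7, became 7, 12 and 14 in Sir2OE1, Sir2OE2 and Sir2KD2 with no offset and 11 in Sir2KD2 with 1 offset. They were 0 in each line with no array turned, and 0 in Sir2OE1, Sir2OE2 and Sir2KD2 under the replicate block. With the kinds apart they were 0, 3 and 0 in those lines, with scaling 11 in Sir2OE2, and 0 in Sir2OE1 without both slides. With 1 array left out they ran from 0 to 5, 2 to 7, 5 to 8 and 2 to 9. Causes of these moves were not tested. With no intensities, signal over background is unknown, and 3 or 4 arrays a line limit the precision.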
